A study of Mus musculus with 6 samples.

Results

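The antioxidant and glutathione genes are the enzymes and regulators that remove superoxide, hydrogen peroxide and lipid peroxides and that keep thiols reduced. The 40 members were taken by gene symbol from the 46095 rows of the deposited count table. The rule reads symbols only. All 40 were found, and all 40 were among the 14757 genes left after removal of genes with low counts. The libraries were made from brown adipocytes differentiated in culture. Their source was the stromal vascular fraction (the non-adipocyte cells freed when a fat pad is digested) of brown adipose tissue from C57BL/6 mice 5 weeks old. One group was labelled control, with no further genotype, and the other U-IRX3ov, a genotype name that the labels do not expand (titles KI1, KI2 and KI3). No source used here describes its construct, promoter or target cells. Each group had 3 libraries, and the labels do not say whether these came from separate mice or cultures. The sample descriptions end in the word combined, without saying what was combined. The p-values therefore measure only the spread between these libraries. Both groups had 8 days of induction, which began with 2 days in 0.5 mM IBMX, 1 µM each of triiodothyronine, rosiglitazone and dexamethasone, and 5 µg/mL insulin, and went on for 6 days in medium that kept triiodothyronine, rosiglitazone and insulin.

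Superoxide that leaks from the respiratory chain is turned into hydrogen peroxide by superoxide dismutases, and peroxide is then removed by catalase, glutathione peroxidases and peroxiredoxins. The peroxidases draw electrons from glutathione or thioredoxin, which are reduced again at the expense of NADPH. The transcription factor NRF2, encoded by Nfe2l2 and held in check by KEAP1, drives many of these genes through antioxidant response elements. Brown adipocytes are rich in mitochondria and oxidise fuel at a high rate, and redox state is known to bear on their heat production.

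The libraries held 20094799 to 26755870 counts each. Irx3, the gene in the genotype's name, had 131 to 142 raw counts per control library and 114 to 163 per U-IRX3ov library. U-IRX3ov libraries 2 and 3 were smaller, at 20094799 and 20217212 counts in all against at least 25371093 in each control. Scaled for library size, every U-IRX3ov library lay above every control. The difference did not pass the test (log2 fold change 0.27 ± 0.13 SE, edgeR adjusted p = 0.112). It is not known whether transcripts of a construct would add to these counts. Adipocyte markers were abundant in every library (summed 31996 to 32691 CPM in control and 40003 to 41517 CPM in U-IRX3ov, CPM being counts scaled to a common library size), and 9 of 10 rose. Brown adipocyte markers rose in 7 of 7 (summed 225 to 230 against 640 to 735 CPM). All 9 tested markers of preadipocytes and fibroblasts fell, with a summed level of 6507 to 6663 CPM in control and 3911 to 4240 CPM in U-IRX3ov. Macrophage and leukocyte markers fell in 10 of 10 (476 to 584 against 152 to 227 CPM). The 5 red cell markers were at 0 in every library. Endothelial markers rose in 3 of 5 (summed 16.9 to 21.2 against 34.8 to 39.2 CPM). Of 6 markers of pericytes and smooth muscle 5 fell and 1, Cspg4, rose (4641 to 4887 against 2887 to 3210 CPM). A marker is counted as rising or falling at an edgeR adjusted p under 0.05, as 20.2% and 21.1% of all genes tested did. In these bulk libraries fewer cells of a type and less RNA per cell cannot be told apart, and the part of these marker shifts in the results below was not tested.

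Of the 40 members, 14 rose in U-IRX3ov cells, 10 fell and 16 did not pass the test (edgeR quasi-likelihood test, adjusted p under 0.05 over all genes). Among all genes tested 41.3% were called, 20.2% as higher and 21.1% as lower, so that a call was common in this comparison. Calls were more frequent among abundant genes. Of all genes with at least 10 CPM over the 6 libraries 51.1% were called, and of the 34 members at that level 21 were. The median log2 fold change was 0.08 over the members and 0.00 over all genes tested. In 28 members the 3 U-IRX3ov libraries lay all above or all below the 3 control libraries, which 50.8% of all genes tested also did. The changes were mostly moderate, from -1.07 for Gstt1 to 1.44 for Gsta3 on the log2 scale. Tested against a change of 1.5-fold instead of any change, 2 members were higher (Gsta3 and Selenbp1) and 1 was lower (Gstt1).

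**Figure D1:**
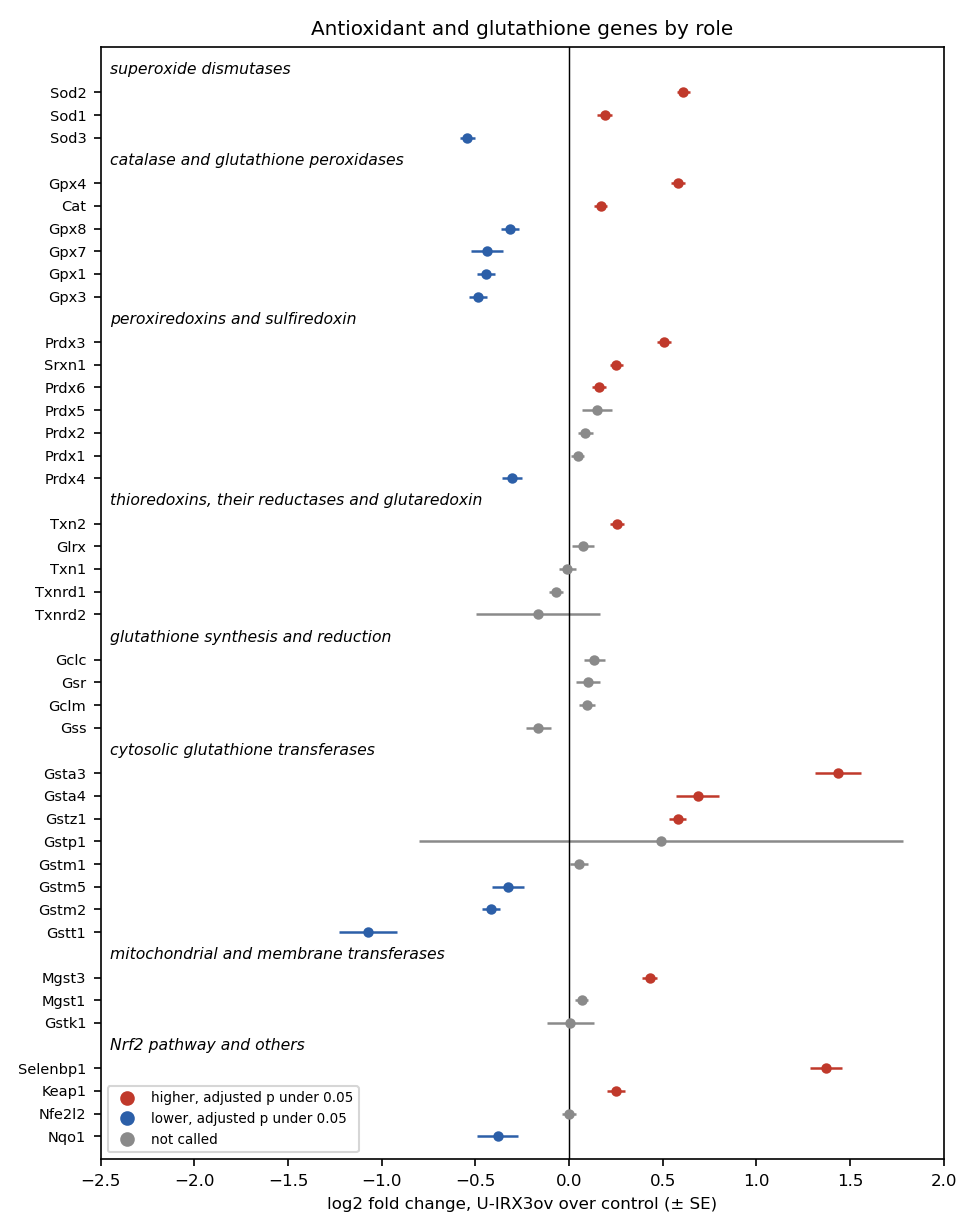
Log2 fold change of U-IRX3ov over control with its SE for the 40 members, ordered by role, with colour for the edgeR call. Sod2, Gpx4 and Prdx3 lie right of 0 at 0.61, 0.58 and 0.51, while Sod3, Gpx3 and Prdx4 of the same families lie left at -0.54, -0.49 and -0.31.

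Of the regulators, Nfe2l2 did not pass the test and Keap1 rose. Nfe2l2, the gene of NRF2, had 202, 194.5 and 204 CPM in control libraries 1, 2 and 3 and 200.5, 199.7 and 200.04 CPM in U-IRX3ov libraries 1, 2 and 3. The U-IRX3ov values lay within the range of the controls (log2 fold change 0.00 ± 0.04 SE, edgeR adjusted p = 0.994), with a 95% interval of 0.932 to 1.07 for the fold. Keap1, whose protein sends NRF2 to degradation, had 54.3, 53.4 and 54.2 CPM in control and 63.6, 64.2 and 65.1 CPM in U-IRX3ov libraries. It rose by 0.25 ± 0.05 SE (edgeR adjusted p = 1.13e-04), with no overlap between groups. However, 10.9% of its exon bases also belong to Gm16754 on the other strand, and whether the counting used strand is not stated. Nqo1, a quinone reductase that is a classical NRF2 target, had 16.5, 12.8 and 15.2 CPM in control and 12.6, 9.80 and 11.6 CPM in U-IRX3ov libraries. It fell by 0.38 ± 0.11 SE (edgeR adjusted p = 0.00547), a call that was lost without control library 1 (0.0505) and without U-IRX3ov library 2 (0.0515).

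To show where an antioxidant response element could lie, the core TGACNNNGC was searched on both strands of the RefSeq promoter windows, which run from 250 bases before to 50 after a start site (build GRCm38.p6). Windows were found for 35 members. Counted by gene, 9 of these 35 held the core in at least 1 window, against 1786 of the 10517 tested genes with a window. This difference was not tested. Counted by window, 12.4% of all 32851 windows held the core, a share that cannot be set beside the counts of genes because a gene can have several windows. The matches are printed 5′ to 3′ on the strand that reads TGAC, with the core in capitals and 8 bases on either side. They are shown because they occur in members with and without a call.
Prdx1, chr4:116685458-116685482, opposite strand to the gene: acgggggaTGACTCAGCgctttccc
Gclm, chr3:122245415-122245439, opposite strand: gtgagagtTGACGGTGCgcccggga
Txnrd1, chr10:82859106-82859130, opposite strand: tgtcagaaTGACAAAGCaaaaatcc
Mgst1, chr6:138140463-138140487, opposite strand: ccgcctccTGACCGTGCcaagcccc
Nfe2l2, chr2:75704887-75704911, same strand: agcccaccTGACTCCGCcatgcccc
Srxn1, chr2:152105544-152105568, opposite strand: tctcactcTGACCTAGCtgcccact
Sod1, chr16:90220698-90220722, opposite strand: cctgagtcTGACCACGCccaccttg
Gsta3, chr1:21240456-21240480, same strand: ctcaggcaTGACATTGCatttttct
Gstm5, chr3:107895804-107895828, same strand: ccgcccacTGACCACGCggagggcg
The core was present in 3 of 12 members that rose (Srxn1, Sod1 and Gsta3), in 1 of 9 that fell (Gstm5) and in 5 of 14 that did not pass the test. A match describes these letters only, and its absence says nothing about binding elsewhere.

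Of the 3 superoxide dismutases Sod1 and Sod2 rose and Sod3 fell. Sod2, the manganese enzyme of the mitochondrial matrix, had 254, 256 and 268 CPM in control and 388, 391 and 409 CPM in U-IRX3ov libraries, a rise of 1.53-fold (log2 fold change 0.61 ± 0.04 SE, edgeR adjusted p = 1.18e-13). Sod1, the copper and zinc enzyme of the cytosol, had 352, 352 and 397 CPM in control and 423, 409 and 423 CPM in U-IRX3ov libraries. Its rise of 0.19 ± 0.04 was smaller, and the lowest U-IRX3ov library lay just above the highest control. Sod3, the secreted form that binds to the extracellular matrix, had 152, 142 and 146 CPM in control and 103, 96.8 and 102 CPM in U-IRX3ov libraries. It fell by 0.54 ± 0.04 (adjusted p = 1.34e-11), with every U-IRX3ov library below every control.

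**Figure D2:**
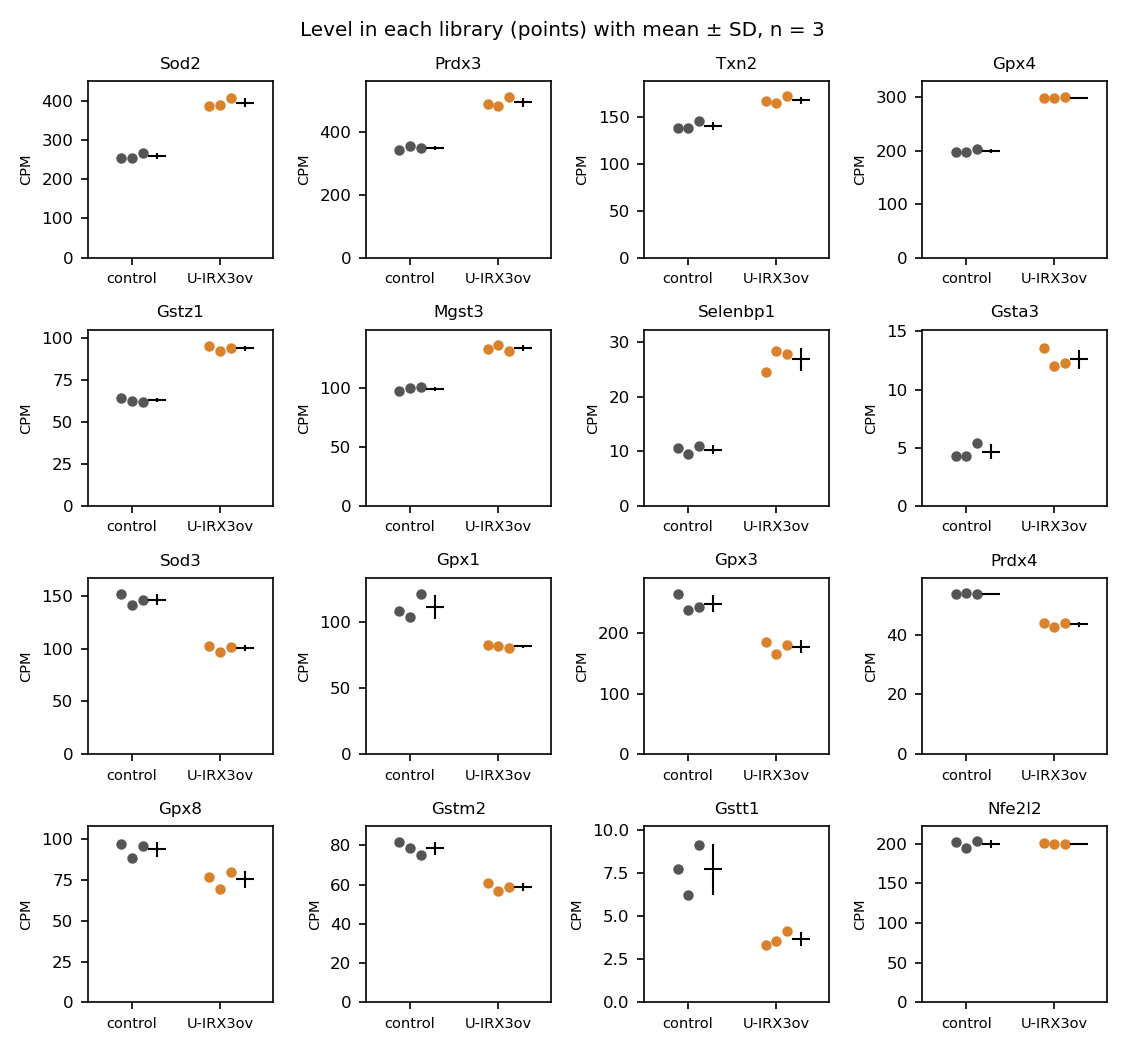
Level in CPM of 16 members in each of the 3 control and 3 U-IRX3ov libraries, with mean and SD beside the points and axes from 0. The 16 were selected for display. The groups are apart for every gene shown except Nfe2l2, whose libraries all lie between 194.5 and 204 CPM. They are apart for 28 of all 40 members and for 50.8% of all genes tested.

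Among peroxide-removing enzymes outside the peroxiredoxin family 2 rose and 4 fell. Gpx4, the phospholipid hydroperoxide peroxidase that guards membranes against lipid peroxidation, had 198, 197 and 204 CPM in control and 298, 299 and 299 CPM in U-IRX3ov libraries. It rose by 0.58 ± 0.04 on the log2 scale (edgeR adjusted p = 1.83e-13). Gpx1, a cytosolic glutathione peroxidase, had 108, 104 and 121 CPM in control and 82.7, 81.7 and 80.4 CPM in U-IRX3ov libraries, a fall of 0.44 ± 0.05. Per length, the level of Gpx4 was 1.53, 1.59 and 1.40 times that of Gpx1 in the control libraries and 3.01, 3.05 and 3.11 times in the U-IRX3ov libraries. Gpx4 was higher and Gpx1 lower in every U-IRX3ov library than in every control, so the 2 groups could not overlap in this ratio. The ratio restates those changes and adds no evidence to them. An exact permutation test of 3 against 3 cannot give a p under 0.1.

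Gpx3, the secreted plasma peroxidase, had 265, 238 and 243 CPM in control and 186, 166 and 180.5 CPM in U-IRX3ov libraries and fell by 0.49 ± 0.05. Gpx7 and Gpx8, both of the endoplasmic reticulum where they use peroxide in protein folding, fell by 0.44 ± 0.08 and 0.32 ± 0.05. Gpx7 stood at 21.6 ± 1.201 against 15.9 ± 1.70 CPM (SD, n = 3) and Gpx8 at 93.9 ± 4.66 against 75.5 ± 5.24 CPM. Catalase (Cat), the peroxisomal enzyme, had 522, 502 and 541 CPM in control and 579, 594 and 586 CPM in U-IRX3ov libraries. It rose by 0.17 ± 0.04, less than Gpx4, and its groups did not overlap.

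Peroxiredoxins reduce peroxide through a reactive cysteine, and Prdx3, the mitochondrial one, had the largest difference of the 6. It had 342, 356 and 348 CPM in control and 491, 483 and 512 CPM in U-IRX3ov libraries (log2 fold change 0.51 ± 0.04 SE, edgeR adjusted p = 2.92e-12). Prdx1, the main cytosolic form, had 662, 615 and 659 CPM in control and 664, 653 and 681 CPM in U-IRX3ov libraries. These ranges overlapped, and the fold had a 95% interval of 0.963 to 1.11. Per length, Prdx3 stood at 1.06, 1.19 and 1.09 times Prdx1 in control and at 1.52, 1.52 and 1.55 times in U-IRX3ov libraries. Prdx4, the form of the endoplasmic reticulum, had 53.7, 54.1 and 53.5 CPM in control and 43.9, 42.4 and 44.0 CPM in U-IRX3ov libraries and fell by 0.31 ± 0.05. Srxn1, the sulfiredoxin that repairs over-oxidised peroxiredoxins, had 297, 291 and 296 CPM in control and 353, 347 and 352 CPM in U-IRX3ov libraries and rose by 0.25 ± 0.03. It had the smallest within-group spread of the 40 members.

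Prdx6, which also acts on phospholipid peroxides, rose by 0.16 ± 0.04, from 251 ± 1.00 to 280.4 ± 11.6 CPM (SD, n = 3). Prdx2 (0.09 ± 0.04) and Prdx5 (0.15 ± 0.08) did not pass the test. Prdx5 had 150.5, 154 and 186 CPM in control and 183, 178 and 183 CPM in U-IRX3ov libraries, so that control library 3 lay above all others. Without that library its log2 fold change was 0.25 (edgeR adjusted p = 4.64e-06), and it was also called with the replicate number as a block (0.0154), by limma-voom (0.0459) and with no filter on low counts (0.00129). It shares 19.1% of its exon bases with Trmt112 on the other strand. Prdx2 likewise passed without control library 3 (adjusted p = 0.0292).

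In the thioredoxin system the mitochondrial thioredoxin was the 1 member of 5 that passed. Txn2 had 138, 138 and 145 CPM in control and 167, 164 and 172 CPM in U-IRX3ov libraries (log2 fold change 0.26 ± 0.04 SE, edgeR adjusted p = 3.88e-06). Txn1, the cytosolic thioredoxin, had 151, 160.2 and 175 CPM in control and 161, 154 and 167.5 CPM in U-IRX3ov libraries, with overlapping ranges and a fold interval of 0.908 to 1.09. The cytosolic reductase Txnrd1 (-0.07 ± 0.04) and the glutaredoxin Glrx (0.08 ± 0.06) did not pass. Txnrd2, the mitochondrial reductase, had 38, 76 and 25 counts in control and 39, 31 and 30 in U-IRX3ov libraries, at most 2.90 CPM. The 95% interval of its fold ran from 0.471 to 1.68, control library 2 was the high one, and the within-group SD of 0.45 on the log2(CPM + 0.5) scale was exceeded by 148 of the 14757 genes tested. No difference was detected, and without control library 2 its log2 fold change was 0.41 in place of -0.17.

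None of the 4 genes of glutathione synthesis and reduction passed the test. Gclc, the catalytic subunit of the rate-limiting glutamate-cysteine ligase, had 57.6, 49.9 and 53.9 CPM in control and 58.5, 59.4 and 59.4 CPM in U-IRX3ov libraries. The groups did not overlap, but the test fell just short (log2 fold change 0.13 ± 0.05 SE, edgeR adjusted p = 0.0503). It passed without control library 1 (0.0117), with DESeq2 size factors in the edgeR fit (0.0431) and with the replicate number as a block (0.0489). The modifier subunit Gclm stood at 0.10 ± 0.04 (adjusted p = 0.0679), the synthetase Gss at -0.16 ± 0.07 (0.0574) and the glutathione reductase Gsr at 0.10 ± 0.06 (0.225). Gclm passed without control library 2 (0.0371). Gss, of whose exon bases 6.68% are shared with Acss2 on the other strand, passed without control library 1 (0.00959) and with upper-quartile scaling (0.0357). The 95% fold intervals of Gss and Gsr ran from 0.783 to 1.02 and from 0.948 to 1.21.

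Glutathione transferases, which join glutathione to electrophiles, held the largest rise and the largest fall of the 40 members. Gsta3, an alpha-class transferase, had 4.27, 4.32 and 5.42 CPM in control and 13.5, 12.01 and 12.3 CPM in U-IRX3ov libraries. This was 2.71-fold (log2 fold change 1.44 ± 0.12 SE, edgeR adjusted p = 1.72e-10). Gsta4, which clears the lipid peroxidation product 4-hydroxynonenal, went from 6.45 ± 0.42 to 10.4 ± 0.54 CPM (SD, n = 3; log2 0.69 ± 0.11). Gstz1, the maleylacetoacetate isomerase of tyrosine breakdown, had 64.3, 62.3 and 61.9 CPM in control and 95.1, 92.3 and 94.1 CPM in U-IRX3ov libraries and rose by 0.58 ± 0.04. The exons of Gstz1 overlap those of Pomt2 on the other strand over 9.14% of their bases.

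Gstt1, a theta-class transferase, had 7.74, 6.23 and 9.13 CPM in control and 3.35, 3.54 and 4.13 CPM in U-IRX3ov libraries. It fell by 1.07 ± 0.15 on the log2 scale (edgeR adjusted p = 1.98e-06), and every U-IRX3ov library lay below every control. The mu-class genes, neighbours on chromosome 3, differed among themselves. Gstm2 had 81.8, 78.5 and 75.3 CPM in control and 60.8, 56.6 and 58.8 CPM in U-IRX3ov libraries and fell by 0.42 ± 0.05. Gstm5 fell by 0.32 ± 0.09, from 22.4 ± 1.40 to 17.9 ± 2.32 CPM, and shares 13.9% of its exon bases with 4933431E20Rik on the other strand. Gstm1 had overlapping ranges (0.05 ± 0.05), at 65.1 ± 2.54 against 67.5 ± 0.66 CPM. Mu- and alpha-class genes have close paralogs, and how the counting treated reads that match several of them is not given.

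Gstp1, the pi-class transferase, had 26, 96 and 234 counts in control libraries 1, 2 and 3 and 32, 49 and 301 in U-IRX3ov libraries 1, 2 and 3. The libraries of a group thus differed by far more than the groups did, and both libraries numbered 3 were the high ones. Its within-group SD of 1.51 on the log2(CPM + 0.5) scale was exceeded by 1 of the 14757 genes tested, while the median gene had 0.10 and the median member 0.06. Its neighbour and close copy Gstp2 had 0 or 1 count in every library. The log2 fold change of 0.49 ± 1.29 SE did not pass (edgeR adjusted p = 0.803), and it was -1.28 without U-IRX3ov library 3 and 1.44 without control library 3. With the replicate number as a block the log2 fold change was 0.36 ± 0.22 SE and did not pass either (edgeR adjusted p = 0.225). No direction can be read for Gstp1 from these libraries.

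**Figure D3:**
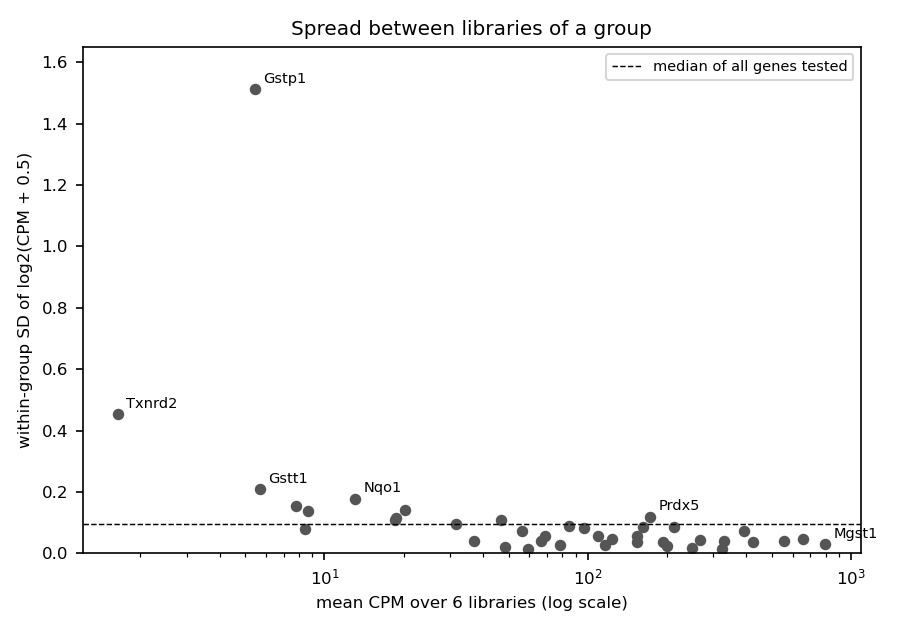
Within-group SD of log2(CPM + 0.5) against mean CPM on a log axis, 1 point for each of the 40 members, with the median SD of all genes tested as a dashed line. Gstp1 stands alone at 1.51 and Txnrd2 follows at 0.45, while the members above 200 CPM lie between 0.01 and 0.08.

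Of the transferases outside the cytosol, Mgst3, a microsomal enzyme of the MAPEG family, had 97.1, 99.6 and 101 CPM in control and 134, 136 and 131 CPM in U-IRX3ov libraries and rose by 0.43 ± 0.04 (edgeR adjusted p = 6.19e-10). Mgst1, of the same family, did not pass (0.07 ± 0.03, adjusted p = 0.120), although its libraries did not overlap, at 771, 761 and 805 against 816, 823 and 810.0 CPM. Without control library 3 it passed (0.0397). The mitochondrial kappa-class Gstk1 had overlapping ranges at 7.78 ± 1.15 and 7.84 ± 0.49 CPM. Selenbp1, a methanethiol oxidase, had 10.6, 9.47 and 10.9 CPM in control and 24.5, 28.3 and 27.7 CPM in U-IRX3ov libraries. It rose 2.59-fold (log2 fold change 1.37 ± 0.09 SE, adjusted p = 3.38e-13), with the lowest U-IRX3ov library far above the highest control.

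Per length, the most abundant member in control cells was Mgst1, at 387 ± 11.5 RPKM (CPM per kilobase of exon, SD, n = 3). Prdx3 (236 ± 4.59 RPKM), Prdx1 (212 ± 8.75) and Cat (199.7 ± 7.59) followed, of which Prdx1 and Cat lay within their summed SD. In U-IRX3ov cells Mgst1 stood at 406 ± 3.22 RPKM and Prdx3 at 335 ± 10.1 RPKM. The least abundant were Txnrd2 at 0.40 RPKM and Gsta3 at 1.07 RPKM in control. The largest fold changes belonged to genes at the low end of this range. Gsta3, Selenbp1 and Gstt1 had 1.07, 4.54 and 5.04 RPKM in control.

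**Figure D4:**
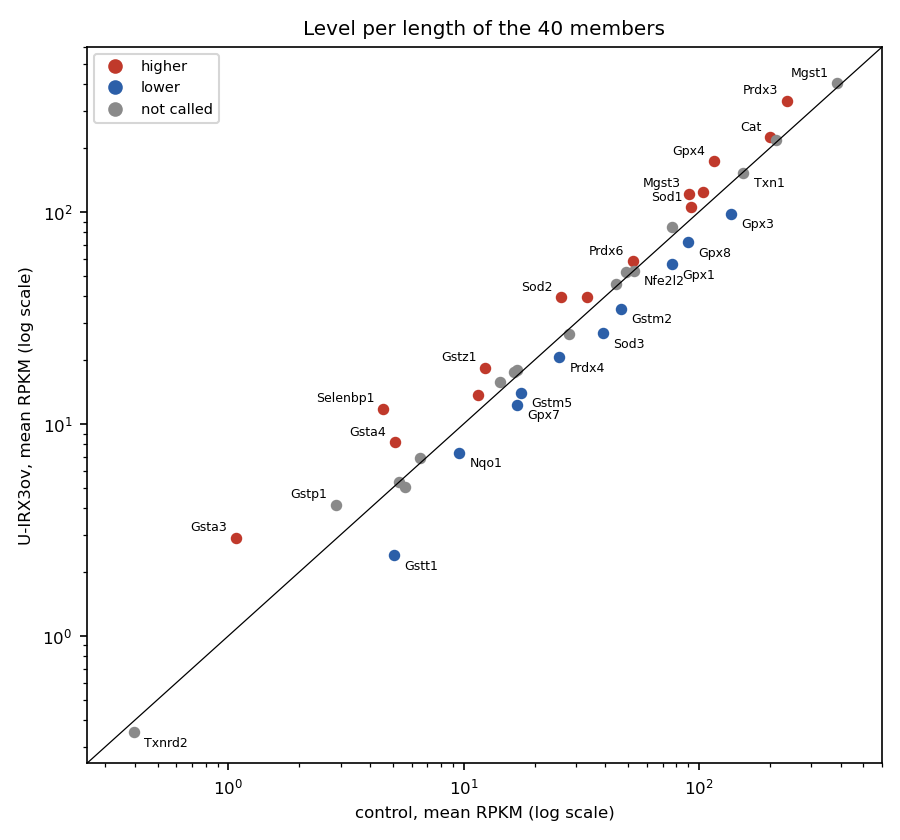
Mean RPKM in U-IRX3ov against control for the 40 members on log axes, with the line of equal level and colour for the edgeR call. Mgst1 is highest in both groups, and Gsta3, Selenbp1 and Gstt1 stand farthest from the line among the members called.

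Grouped by the main site of the protein, all 3 members of the endoplasmic reticulum and both secreted members fell, while 3 of 5 mitochondrial members rose and 0 fell. Among all genes tested 20.2% were called as higher and 21.1% as lower. The mitochondrial members that did not pass were Gstk1 and Txnrd2, both below 10 CPM. Of the 23 members of cytosol and nucleus 7 rose and 5 fell, and of the other 7, at membranes, in the peroxisome or at several sites, 4 rose and 0 fell. Mitochondrial members took 11.8%, 12.4% and 11.7% of the members' summed RPKM in the control libraries and 15.2%, 15.2% and 15.7% in the U-IRX3ov libraries. The share of the endoplasmic reticulum was 5.36%, 5.14% and 5.20% in control and 3.95%, 3.64% and 3.92% in U-IRX3ov libraries. Secreted members took 7.45%, 6.88% and 6.67% in control and 4.76%, 4.35% and 4.58% in U-IRX3ov libraries. These counts and shares are descriptions without a test. They depend on the site given to each member, which was chosen with earlier results of these data known. Gpx4, Prdx5, Gsta4 and Gsr were placed at several sites and not with the mitochondrial members. Gpx1, which fell, was placed with cytosol and nucleus only, so that the absence of a fall among mitochondrial members depends on this choice too. In the same libraries the summed fibroblast markers were 3911 to 4240 against 6507 to 6663 CPM and the summed brown adipocyte markers 640 to 735 against 225 to 230 CPM, and their part in this pattern was not tested.

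Genes of the wider pathway were followed in lists that hold none of the members. Beside the counts of each list stand the shares of all genes tested, 20.2% called as higher and 21.1% as lower. Genes that supply NADPH or its one-carbon routes rose in 14 of 21 and fell in 1 (median log2 fold change 0.30). Tkt, a transketolase of the pentose phosphate pathway, rose by 0.65 ± 0.03, the mitochondrial isocitrate dehydrogenase Idh2 by 0.79 ± 0.05, malic enzyme Me1 by 0.54 ± 0.04 and cytosolic Idh1 by 0.33 ± 0.04. G6pdx, the entry enzyme of the pentose phosphate pathway, rose by 0.27 ± 0.04. The member that fell was Nnt, the transhydrogenase of the inner mitochondrial membrane, by 0.51 ± 0.08 (edgeR adjusted p = 3.40e-06).

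Nrf2 regulators and targets rose in 5 of 23 and fell in 7, with a median of -0.03. For this list and the next, the shares of all genes tested were 20.2% higher and 21.1% lower. Ephx1, a microsomal epoxide hydrolase, fell by 0.56 ± 0.04, the carbonyl reductase Cbr1 rose by 0.43 ± 0.06, and Ugdh and Trim16 fell by 0.18 ± 0.04 and 0.32 ± 0.07. Hmox1, the inducible heme oxygenase, did not pass (-0.08 ± 0.04, edgeR adjusted p = 0.0661). Other glutathione and thioredoxin genes rose in 5 of 31 tested and fell in 5, with a median of 0.02. Oplah, which recycles 5-oxoproline to glutamate, rose by 1.03 ± 0.05, from 50.6 to 103 CPM, and Txnip, the inhibitor of thioredoxin, by 0.60 ± 0.04, from 823 to 1245 CPM. The iron-sulfur cluster protein Glrx5 rose by 0.36 ± 0.04, and the methionine sulfoxide reductase Msrb3 fell by 0.51 ± 0.04. The cystine transporter Slc7a11 had 42.4 CPM in both groups (0.00 ± 0.06).

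Sources of oxidants rose in 2 of 13 tested genes and fell in 8 (median -0.35), where 20.2% of all genes tested rose and 21.1% fell. Ero1l, the oxidase of the endoplasmic reticulum, rose by 0.95 ± 0.05. Subunits of the phagocyte NADPH oxidase were among those that fell, such as Cyba by 0.81 ± 0.09 and Ncf1 by 1.37 ± 0.20. In the same libraries the 10 macrophage and leukocyte markers fell, from a summed 476 to 584 CPM to 152 to 227 CPM, and their part in this was not tested. Genes of selenoprotein synthesis and other selenoproteins rose in 2 of 18 and fell in 7 (median -0.11), beside the same shares of 20.2% and 21.1%. Selenon, Selenom and Selenof, selenoproteins of the endoplasmic reticulum, fell by 0.48 ± 0.05, 0.66 ± 0.08 and 0.20 ± 0.03. Sephs2, which makes the selenium donor, rose by 0.40 ± 0.04. Among the 5 selenoproteins of the members Gpx4 rose, Gpx1 and Gpx3 fell, and Txnrd1 and Txnrd2 did not pass.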

How the data were processed

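RNA sequencing covered 3 control and 3 U-IRX3ov libraries, which the genotype label puts in groups. The deposited table holds whole-number read counts per gene symbol, not normalized by the authors. HISAT2 2.0.4 and mm10 are named in the submitters' processing notes. How reads were counted (program, annotation, strand, reads matching several places) is not given.

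Genes low in both groups were removed with filterByExpr, which left at least 99.9% of each library's counts. Counts were scaled by TMM and tested with edgeR 4.0.16 in R 4.3.3 (robust quasi-likelihood F test, group as the only term, Benjamini-Hochberg adjustment over all genes). Every adjusted p is from this test unless another is named. An SE is the log2 fold change divided by the square root of F. The 95% fold intervals use 4 residual degrees of freedom and are wider than the test. The biological coefficient of variation was 5.12%. RPKM is TMM-scaled CPM per kilobase of merged exons in GENCODE M21 (GRCm38, the assembly of mm10), whose merged isoforms can overstate a gene's transcribed length. The script was also run on counts simulated from the fitted means and dispersions, which checks the code and not the calls reported here.

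Alternatives were other scalings and filters, DESeq2 1.42.0, limma-voom 3.58.1, the replicate number as a block, 2 stricter thresholds and leaving out each library. All 40 members are named. Of each other list up to 4 genes with the smallest p are named (1 such gene is not reported here), plus Hmox1, Slc7a11, Txnip, Nnt and G6pdx, and 11 selenoproteins were found under older symbols through RefSeq. The comparison with genes of at least 10 CPM was added after the values were seen. Members, lists and sites were chosen with earlier results of these data known.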

Additional observations from a re-analysis of the deposited data

How the results depend on the processing

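The counts of members that rose and fell, 14 and 10, stayed within 14 to 17 and 9 to 10 when any 1 library was left out, and the genes called overall ranged from 5398 to 5701 instead of 6098. The members' median log2 fold change of 0.08 ranged from 0.06 to 0.10 in these fits. With the replicate number as a block 6173 genes were called, and 16 members rose and 10 fell. The libraries were not treated as pairs because the numbers are not said to mark shared animals or days. In their deviations from the group means, same-numbered libraries correlated by 0.02, 0.07 and 0.05, each library best with its own number. Whether the numbers mark a shared source was not tested. A test against a 1.5-fold change called 682 genes, 2 members as higher and 1 as lower, and in it small changes cannot pass. Of the 24 members called, 23 were called under all 13 alternatives that kept the threshold and the null of no change. The exception was Nqo1. The sign of these 24 held throughout. Of the 16 members not called 6 passed under some alternative (Prdx2, Prdx5, Gclc, Gclm, Gss and Mgst1). Depth was lowest for Txnrd2 by mean CPM, at 25 to 76 counts per library.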
